A study of Mus musculus with 5 samples.

Results

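The genes *Acacb*, *Add1*, *Asb3* and *Gpr75* each carried an intronic peak that ranked among the top 5 by −log10 q in both SOX4 ChIP-seq lists of mouse fibroblast-like synoviocytes (FLS), which are stromal cells of the synovial lining in joints. The genes were chosen by these ranks. The members are the peaks whose summit lay in the body of 1 of these 4 genes (mm10, GENCODE vM21), which gave 13 of the 3798 peaks of 4 lists. They fell at 4 separate sites, with 3 peaks each in SOX4 untreated (of 192), SOX4 TNF (of 543) and RELA untreated (of 561), and 4 peaks in RELA TNF (of 2502). A single peak lies in both *Gpr75* and *Asb3*, so the 4 genes hold 3 strong sites, named here *Acacb*, *Add1* and *Gpr75/Asb3*. The remaining peak, in RELA TNF alone, lies 79.3% along *Asb3* from its start and is called the downstream *Asb3* site.

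All libraries came from wildtype FLS of C57BL/6 mice that were left untreated or given 10 ng/mL TNF for 16 h. Chromatin was precipitated with antibodies to SOX4 or to RELA (p65). The DNA of 3 cultures entered a single library, so each condition has 1 library, no test between conditions was possible, and the intervals below cover counting error only. Every list was called against the same input library from untreated FLS. Peak lists carry no expression of marker genes, so the labelled cell type was not checked here.

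SOX4 is a SoxC protein that binds DNA through an HMG box, which prefers words around AACAA. RELA is the transactivating NF-κB subunit that TNF signalling releases into the nucleus. ChIP-seq counts the fragments that an antibody recovers at a position, whether the protein touches that DNA or sits there through a partner. *Acacb* encodes acetyl-CoA carboxylase 2, which makes the malonyl-CoA that restrains fatty acid oxidation in mitochondria. *Add1* encodes α-adducin, which joins spectrin to the ends of actin filaments. *Gpr75* encodes an orphan G protein-coupled receptor, and *Asb3* an ankyrin repeat and SOCS box protein of a ubiquitin ligase.

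The genomic sequence at *Add1* and at *Gpr75/Asb3* is shown to place the summits and the words described below for these sites. Its letters do not show the repeat mask, and the window searched for words at *Add1* begins before the printed bases. Each run is the plus strand of GRCm38.p6, the assembly of mm10, and also the sense strand of the gene. Capitals mark the bases that lie in the peak interval of every list, and 20 bases on either side are in lower case. The *Add1* run is chr5:34619205-34619315 and the *Gpr75/Asb3* run chr11:30888257-30888364.
Add1: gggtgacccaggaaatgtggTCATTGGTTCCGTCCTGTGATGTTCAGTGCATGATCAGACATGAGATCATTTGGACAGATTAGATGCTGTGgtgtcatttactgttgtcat
Gpr75/Asb3: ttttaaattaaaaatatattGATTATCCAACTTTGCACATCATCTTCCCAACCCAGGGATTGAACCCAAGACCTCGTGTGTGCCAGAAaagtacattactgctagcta

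No annotated exon covered any of the summits. In *Acacb* (ENSMUSG00000042010.16, chr5:114146535-114250761, plus strand) the summit lay 26597 bp from the gene start, in intron 2 of Acacb-202, which is intron 1 of Acacb-201 and is 17909 bp long. Transcript starts were searched among protein-coding genes only, here and below. The nearest such start belonged to Acacb-205, at 2774 bp. The next genes by distance to a start were *Ung*, a uracil-DNA glycosylase, at 41052 bp and *Alkbh2*, a DNA repair dioxygenase, at 44914 bp.

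In *Add1* (ENSMUSG00000029106.14, chr5:34573664-34632308, plus strand) the summit lay 45587 bp from the gene start, in the 2535 bp intron 10 of Add1-204. It was 99 bp before the following exon, and 8 of the 15 annotated transcripts span it. The start of the transcript Add1-213 lay 103 bp away, the shortest distance to a start in a protein-coding gene among the 4 sites. The next start of a protein-coding gene, the transporter gene *Mfsd10*, was at 15378 bp.

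The *Gpr75/Asb3* summit lay in the only intron of *Gpr75* (ENSMUSG00000043999.6, chr11:30885358-30893729, plus strand), which is 5446 bp long. It also lay in the first intron of Asb3-206, which is 112766 bp long, and *Asb3* itself (ENSMUSG00000020305.13) spans chr11:30885416-31102704 on the plus strand. The site was 2950 bp from the start of *Gpr75* and 2892 bp from that of Asb3-206, so distance does not separate the genes. Of the 6 *Asb3* transcripts, 1 covers this site. The downstream site lay 169346 bp further on, in a 2584 bp intron that 4 *Asb3* transcripts share, and 941 bp from the start of Asb3-205.

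The rule chose the SOX4 values, which are given as a description. In SOX4 untreated, *Gpr75/Asb3* and *Acacb* tied for the first rank at a −log10 q of 54.9, and *Add1* was 5th at 47.7. The first peaks below the top 5 had 46.1, at chr11 position 25100180 and chr12 position 69159564. In SOX4 TNF, *Gpr75/Asb3* was 2nd at 73.0, *Acacb* 4th at 71.4 and *Add1* 5th at 68.6, and the first peak below had 67.0. *Add1* was thus the member nearest to the limit in both lists. The other peaks of the top 5 lay on chromosomes 16 and 2 without TNF and on chromosomes 9 and 2 with TNF, and none of them was in a protein-coding gene.

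The RELA ranks took no part in the choice. In RELA untreated, *Acacb* ranked 1st by −log10 q (67.0), *Gpr75/Asb3* 4th (59.7) and *Add1* 16th (43.4) of 561 peaks. In RELA TNF, the ranks were 10th (110.3), 82nd (72.3) and 103rd (67.2) of 2502 peaks. The 3 sites therefore also stood near the top of RELA untreated and lay lower in the longer RELA TNF list, where 95.9% to 98.5% of the peaks had a smaller fold enrichment. The downstream *Asb3* peak ranked 350th by −log10 q (38.6), and 80.9% of the RELA TNF peaks had a smaller fold enrichment.

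Being in all 4 lists was common. Of the 192 SOX4 untreated sites, 149 (77.6%, Wilson 95% interval 71.2 to 82.9) had a summit within 50 bp in each of the other lists, and the 3 strong sites were among them. Their intervals nearly coincided. At *Add1*, 71 of the 74 bases covered by any list were covered by all (95.9%). The share was 94.4% at *Gpr75/Asb3* (68 of 72 bases) and 86.2% at *Acacb* (75 of 87 bases), against a median of 81.0% over the 149 sites.

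**Figure D1:**
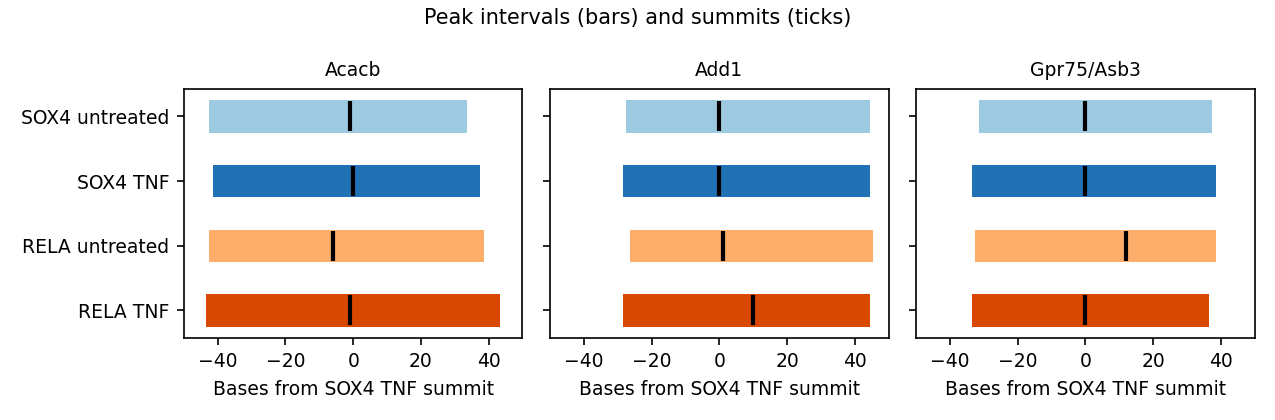
Peak intervals (bars) and summits (black ticks) of the 4 lists at the 3 strong sites, in bases from the SOX4 TNF summit. Interval ends differ by at most 10 bases at each site, and the summits of the lists span 6 bases at *Acacb*, 10 at *Add1* and 12 at *Gpr75/Asb3*.

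At *Acacb* the peak widths were 76 bp in SOX4 untreated, 79 bp in SOX4 TNF, 81 bp in RELA untreated and 87 bp in RELA TNF. The summits were at chr5 positions 114173131, 114173132, 114173126 and 114173131 in the same order. At *Add1* the widths were 72 bp or 73 bp, with summits at 34619251 in both SOX4 lists, 34619252 in RELA untreated and 34619261 in RELA TNF. At *Gpr75/Asb3* the widths were 69 bp to 72 bp, with summits at chr11 position 30888308 in 3 lists and at 30888320 in RELA untreated. The summit range of 6, 10 and 12 bp compares with a median of 10 bp over the 149 sites, so the SOX4 and RELA summits were as close here as at other shared sites. In the list that holds it, the nearest other peak was 169346 bp away for *Gpr75/Asb3* in RELA TNF, where it is the downstream *Asb3* peak, and at least 203905 bp away for the strong sites in every other case.

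The deposited fold enrichment is the height of a peak over its background. At *Acacb* it was 21.0 in SOX4 untreated, 23.1 in SOX4 TNF, 22.1 in RELA untreated and 32.1 in RELA TNF. At *Add1* it was 22.2, 27.1, 16.3 and 26.9 in the same order. At *Gpr75/Asb3* it was 24.8, 28.5, 24.4 and 28.4. RELA TNF was thus the highest list at *Acacb*, RELA untreated the lowest at *Add1*, and at *Gpr75/Asb3* the SOX4 and RELA values of each treatment were close to each other. The list medians were 8.46, 8.56, 8.15 and 9.62, and the downstream *Asb3* peak had 15.3.

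**Figure D2:**
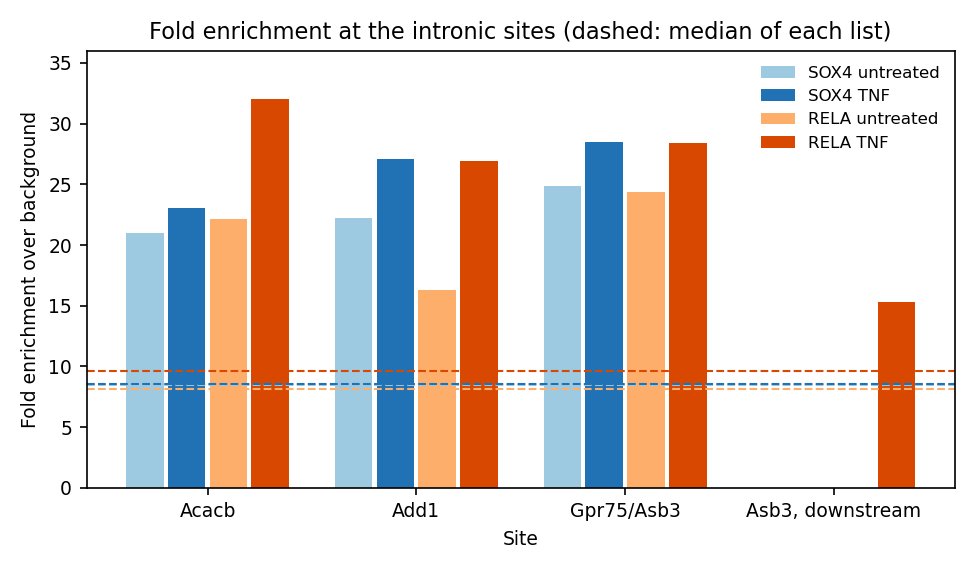
Deposited fold enrichment over background (vertical axis) at each site, with 1 bar per list and dashed lines at the median of all peaks of a list. The strong sites lie between 16.3 and 32.1, above the list medians of 8.15 to 9.62, and the downstream *Asb3* site has a bar in RELA TNF alone.

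The fold enrichment and the −log10 p of a peak were solved together for the number of reads over its summit and the background it was compared with. Where more than 1 solution was possible, the one with the most reads was taken. Solving for both gave whole reads at every peak of the 4 lists (tolerance 0.001). In RELA untreated they were whole after division by 0.921, a factor that was searched for to make them so. Heights of the local background showed the depth of each library relative to the input library, 0.787 in SOX4 untreated, 0.974 in SOX4 TNF, 1.09 in RELA untreated and 0.904 in RELA TNF. The SOX4 TNF library was therefore 1.24 times as deep as SOX4 untreated, and RELA TNF 0.832 times as deep as RELA untreated. Reads divided by this depth are called depth-adjusted reads. The division takes counts as proportional to depth. No summit held more than 100 reads, and whether counts level off towards a limit was not tested.

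At *Acacb* the summit held 53 reads in SOX4 untreated, 67 in SOX4 TNF, 71 in RELA untreated and 89 in RELA TNF. The depth-adjusted reads were 67.3 (95% Poisson interval 50.4 to 88.1), 68.8 (53.3 to 87.4), 65.4 (51.1 to 82.5) and 98.5 (79.1 to 121.2). The SOX4 libraries and RELA untreated thus lay close together and RELA TNF stood above them, with an interval that overlaps theirs. The background at the summit corresponded to 2 input reads in every list. The *Acacb* window shares runs of bases with many other peak sites, as does the downstream *Asb3* window, and whether the reads counted at these sites came from that place, from other repeat copies or from DNA other than that of the mouse was not tested.

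At *Add1* there were 41, 56, 52 and 53 reads, or 52.1 (37.4 to 70.7), 57.5 (43.4 to 74.7), 47.9 (35.8 to 62.8) and 58.6 (43.9 to 76.7) after depth adjustment. The 4 intervals overlap throughout. The low fold enrichment of 16.3 in RELA untreated was computed over 2 input reads at its summit, whereas the summits of the other lists, 1 bp and 9 bp away, were compared with the genome-wide background. In depth-adjusted reads RELA untreated was 0.919 times SOX4 untreated (95% exact interval 0.599 to 1.42), against a fold enrichment ratio of 0.734.

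At *Gpr75/Asb3* the summit held 46, 59, 56 and 56 reads, or 58.4 (42.8 to 78.0), 60.6 (46.1 to 78.2), 51.6 (39.0 to 67.0) and 61.9 (46.8 to 80.4) after depth adjustment. All of these summits were compared with the genome-wide background, so the input held at most 1 read there. The highest of the 4 libraries was 1.20 times the lowest at this site, 1.22 times at *Add1* and 1.51 times at *Acacb*. The median over the 149 sites held by all lists was 1.58, but those sites had fewer reads (median of the lowest and the highest library 20.3 and 39.8 depth-adjusted reads), so counting error is larger there. The rule also used 2 of the 4 lists, and nothing is read from the order of these spreads. The downstream *Asb3* peak had 42 reads, or 46.5 (33.5 to 62.8) after adjustment, over 2 input reads.

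**Figure D3:**
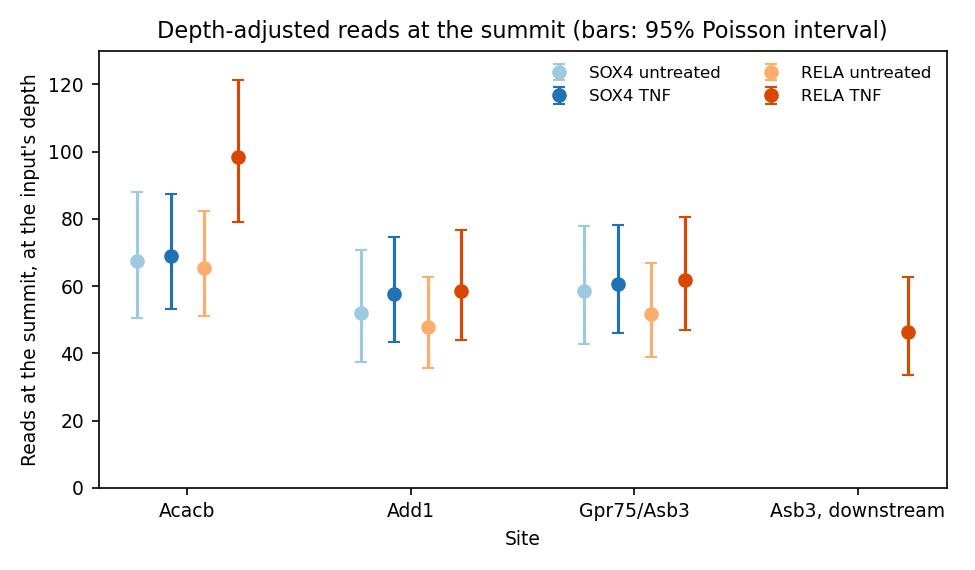
Reads over the summit at the depth of the input library (vertical axis) for each site and list, with 95% Poisson intervals that cover counting error only. The 4 libraries overlap at *Add1* and *Gpr75/Asb3*, and the highest point is RELA TNF at *Acacb* (98.5).

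With TNF, the SOX4 peaks of the 3 sites had a higher fold enrichment than without, by 0.14 on the log2 scale at *Acacb*, 0.29 at *Add1* and 0.20 at *Gpr75/Asb3*. The rule used both of these lists, so nothing is read from this. Among all 161 sites shared by the SOX4 lists, 90.7% had a higher value and the median log2 ratio was 0.46. In depth-adjusted reads the TNF library was 1.02 times the untreated one at *Acacb* (95% exact interval 0.702 to 1.49), 1.10 times at *Add1* (0.725 to 1.69) and 1.04 times at *Gpr75/Asb3* (0.693 to 1.56). Over the 161 sites 83.9% were higher in depth-adjusted reads, with a median log2 ratio of 0.32.

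RELA fold enrichment at the 3 sites was also higher with TNF, by 0.53 on the log2 scale at *Acacb*, 0.73 at *Add1* and 0.22 at *Gpr75/Asb3*. Over the 464 sites shared by the RELA lists 86.6% were higher, with a median of 0.28, so higher values at all 3 are near the background. Depth-adjusted RELA reads with TNF were 1.51 times those without at *Acacb* (1.09 to 2.09), 1.22 times at *Add1* (0.819 to 1.83) and 1.20 times at *Gpr75/Asb3* (0.814 to 1.77). The interval excluded a ratio of 1 at *Acacb* alone, and whether the sites differ from one another was not tested. Over the 464 sites 92.5% were higher in depth-adjusted reads, and 73.1% of them had a smaller ratio than *Acacb*, 47.8% than *Add1* and 39.2% than *Gpr75/Asb3*. At the 27 shared sites with at least 105 reads in the 2 RELA libraries together, the lowest total of the 3 sites, the median log2 ratio was 1.09 and all 27, the members included, were above 0. The 3 sites, at 0.59, 0.29 and 0.26 on this scale, were below that median. These sites were picked by reads that include the TNF library, and the difference was not tested.

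**Figure D4:**
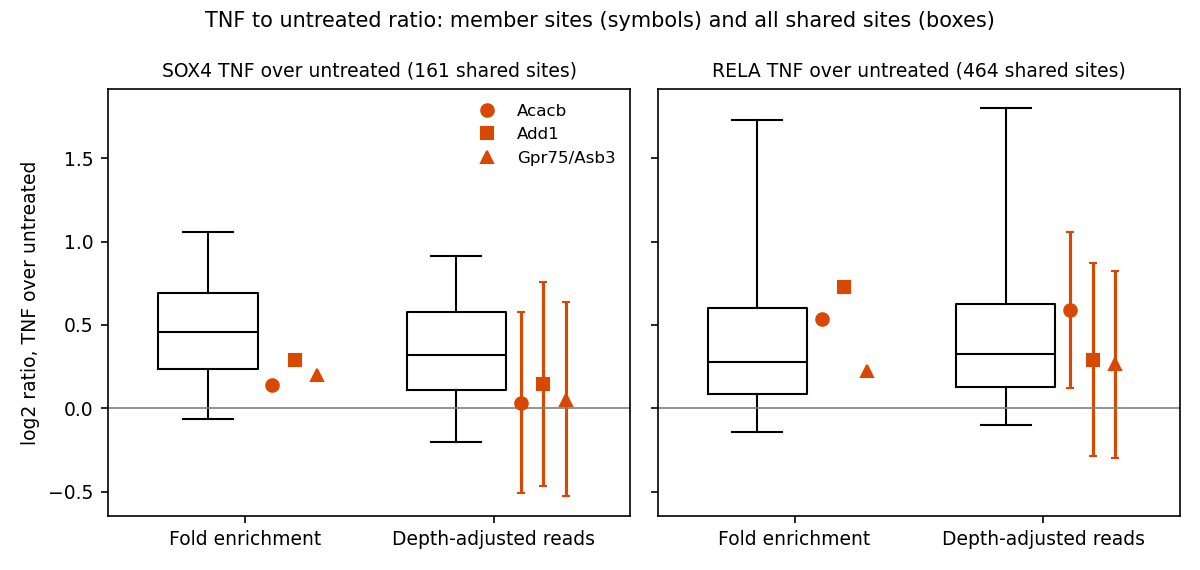
log2 ratio of TNF to untreated (vertical axis) for SOX4 (left) and RELA (right), in fold enrichment and in depth-adjusted reads. Boxes give the median and quartiles of all shared sites with whiskers at the 5th and 95th percentiles, and symbols give the 3 strong sites with 95% exact intervals on the depth-adjusted values. For RELA in depth-adjusted reads, *Acacb* lies at 0.59, *Add1* at 0.29 and *Gpr75/Asb3* at 0.26, beside a median of 0.32 over all shared sites. The SOX4 values come from the lists that chose the sites and are shown as a description.

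RELA and SOX4 were compared within each treatment, as ratios of enrichment with different antibodies and not of occupancy. Without TNF the log2 ratio of RELA to SOX4 fold enrichment was 0.08 at *Acacb*, −0.45 at *Add1* and −0.03 at *Gpr75/Asb3*. In depth-adjusted reads RELA was 0.971 times SOX4 (0.671 to 1.41), 0.919 times (0.599 to 1.42) and 0.882 times (0.587 to 1.33), below 1 at every site with intervals that include 1. Over the 152 sites shared by the untreated lists, RELA was the higher at 82.2% by fold enrichment and at 67.1% by depth-adjusted reads. The sites were chosen for high values in the SOX4 list that is the denominator here, so nothing is read from the low ratios. Of the 8 shared sites with at least 93 reads in these libraries together, members included, RELA was higher at 3, with a median log2 ratio of −0.07.

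With TNF the log2 ratio of fold enrichment was 0.47 at *Acacb*, −0.0081 at *Add1* and −0.0041 at *Gpr75/Asb3*. In depth-adjusted reads RELA was 1.43 times SOX4 at *Acacb* (1.03 to 1.99), 1.02 times at *Add1* (0.687 to 1.51) and 1.02 times at *Gpr75/Asb3* (0.696 to 1.50). Over the 381 sites shared by the TNF lists, RELA was the higher at 67.7% by fold enrichment and at 75.3% by depth-adjusted reads. The interval excluded a ratio of 1 at *Acacb* alone, and the SOX4 TNF list again took part in the choice. At the 23 shared sites with at least 109 reads in the TNF libraries together, members included, RELA was higher at 22 and the median log2 ratio was 0.93. The values were 0.52 at *Acacb* and 0.03 at *Add1* and *Gpr75/Asb3*. The 23 sites were picked by reads that include RELA TNF, the numerator, and the members by SOX4 TNF, the denominator. Nothing is therefore read from the members lying below that median.

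The sites closest to the 3 in their fold enrichment were ranked by the Euclidean distance of the 4 log2 values from the mean of the members, among gene-body sites in all lists. *AI481877* was nearest at 0.27 (chr4 position 59104371), with fold enrichments of 21.5, 24.7, 24.2 and 27.2 in the order of lists used above. *Fam227b* followed at 0.52, *Ybx3*, a cold-shock domain protein that binds nucleic acids, at 0.60, the docking protein gene *Gab3* at 0.66 and *Prkdc*, the catalytic subunit of DNA-dependent protein kinase, at 0.71. The members themselves lay 0.27 to 0.36 from their mean, and the median of the 149 sites was 2.08. That mean is made of the members, and the SOX4 lists chose them, so nothing is read from their closeness to it.

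The sites differed in their repeat content. Soft-masked bases, which mark repeats in the reference, made up 78.7% of the common interval at *Acacb* (59 of 75), none of the 71 bases at *Add1*, 39.7% at *Gpr75/Asb3* (27 of 68) and 91.2% at the downstream *Asb3* site (62 of 68). The summit itself was soft-masked at 84 of the 149 sites in all lists (56.4%) and at 72.7% of the 2768 separate sites of the 4 lists. The 50 bases around each summit occurred once in the reference at every member site. In a window of 24 bases *Acacb* had 2 copies and the others 1.

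Words bound by SOX and NF-κB proteins were searched on both strands in the 100 bp around each summit, and compared with all 2768 sites and with 5536 windows 2000 bp to either side of them. The SOX core word AACAAT was in 7.01% of the sites and 7.97% of the flanking windows, and in none of the member windows. The SOX consensus (A or T, A or T, C, A, A, A or T, G) was in 15.4% and 15.2%, and the full NF-κB consensus in 0.434% and 0.596%, again without a match at the member sites. The short NF-κB word GGGAA was found at *Acacb* and *Gpr75/Asb3*, and in 16.4% of sites and 23.1% of flanking windows. The AP-1 word TGANTCA was found at *Acacb*, and in 2.60% of sites and 2.57% of flanking windows. None of these words was thus more common at the 2768 sites than beside them by a wide margin, and a match is only a description of the letters. The 2768 sites pool the 4 lists, with 2502 of the 3798 peaks from RELA TNF, and the sites of each factor were not counted apart. At the 149 sites in all lists, AACAAT was in 4.70%, the SOX consensus in 19.5% and the full NF-κB consensus in 0.671%. GGGAA was in 20.1% of them and TGANTCA in 2.68%. The flanks of these 149 sites were not counted apart.

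Runs of 12 bases were then compared between the window of each member and all other windows. Of the 89 runs of a window, 62 recurred at another site for *Acacb*, 44 for the downstream *Asb3* site, 13 for *Gpr75/Asb3* and 4 for *Add1*. The *Acacb* run with the largest excess at sites was in 179 of the 2768 sites (6.47%) and in 6 of the 5536 flanking windows (0.108%). At the downstream *Asb3* site such a run was in 17 sites and no flanking window. Sharing some run of 12 with another site was the rule, at 99.1% of the 2768 sites.

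**Figure D5:**
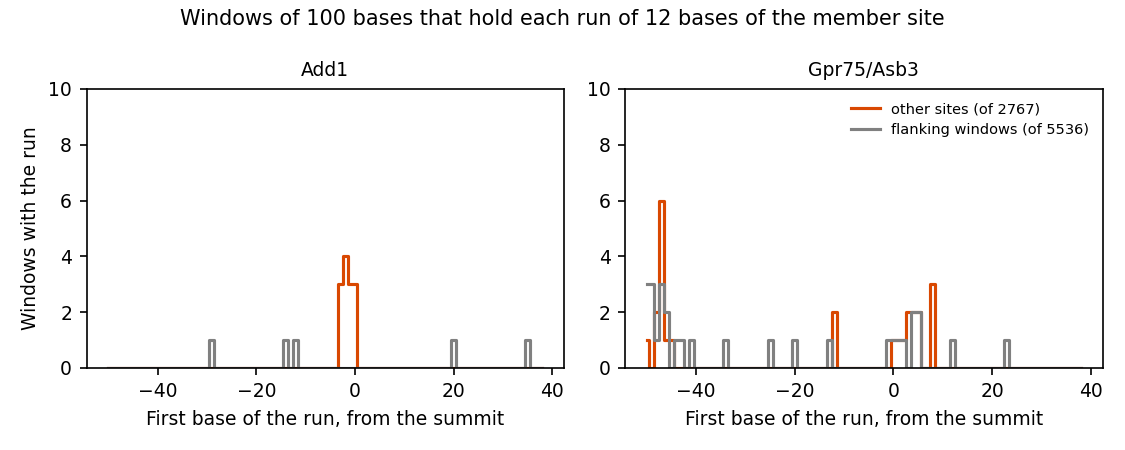
Number of other peak sites (orange) and flanking windows (grey) that hold each 12-base run of the 100-base window at *Add1* (left) and *Gpr75/Asb3* (right), by the position of the run's first base from the summit. The *Add1* runs that recur start close to the summit, at up to 4 other sites, and those of *Gpr75/Asb3* recur at up to 6.

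The unmasked *Add1* site shared its central run with a few sites only. The run was picked among the 89 of the window for the largest excess at sites, which favours absence from the flanking windows. Over all sites, the most shared run of a window was in a median of 10 sites. CAGTGCATGATC was in 5 of the 2768 sites, *Add1* included, and in no flanking window. The others were at chr12 position 50633215 and chr16 position 37735133, in all 4 lists, at chr19 position 55892256 in 3 lists, and at chr2 position 101212352 in RELA TNF. The chromosome 16 site ranked 3rd in SOX4 untreated and 6th in SOX4 TNF by −log10 q. It shared 15 bases with *Add1*, shown here in capitals within 45 bases of the plus strand at chr5:34619233-34619277 and chr16:37735118-37735162.
Add1: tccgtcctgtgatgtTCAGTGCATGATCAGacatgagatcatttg
Chromosome 16 site: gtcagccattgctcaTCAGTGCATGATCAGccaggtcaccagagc
This pair was picked for the longest run between a member and the sites at the top of the SOX4 lists outside protein-coding genes. A shared run of 15 bases or more was found in 215 of 11026 pairs of four-list sites (1.95%), where the median was 7 bases. That rate is for pairs not picked in this way, so it does not measure how unusual the picked pair is. The letters outside the run differ between these 2 sites, and the 3 strong sites shared at most 7 bases with each other.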

How the data were processed

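The authors sequenced ChIP and input DNA of mouse FLS, mapped the reads to mm10 and called peaks with MACS (the submitters' processing notes name MACS2, version not given in the sources used here) against 1 input library. For each peak the deposited files list the p-value and q-value as −log10, and the deposited fold change is a ratio, the fold enrichment over background, whose values fit a pseudocount of 1 when solved for whole reads. The file headers give a fragment length of 300. The input library's own values were not analysed here.

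All peaks were used. Reads over each summit and the background were solved from fold enrichment and −log10 p under a Poisson tail, which was tested on simulated data. In RELA untreated the solved values were multiples of 0.921, which was taken as a scaling of the reads before calling. Treatment of duplicate reads is not given in the sources used here. No summit held more than 100 reads, the number that 1 read per start position and strand allows for reads of 50 bases. The member summits held 41 to 89 reads, and whether counts level off towards this limit was not tested. The depth adjustment, the ratios and the intervals take no account of such levelling. Absolute depth was not worked out. The sequences of 2 member sites are not reported here. Over the peaks, the reads at the summit ran from 8 to 100, with list medians of 16.0 to 20.0, which sets the precision.

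Summits within 50 bp were called shared. Poisson, Clopper-Pearson (ratios) and Wilson (shares) intervals are at 95%. No test was run. The members, lists and alternatives were chosen with earlier results of these data known. Named genes are the members, the genes with the nearest starts, the sites at the edge of the SOX4 top 5, and the 5 gene-body sites most alike. Alternatives were other distances (10 bp, 500 bp, overlap), −log10 q of at least 10, other measures, chromosomes 1 to 19 and X, and other windows. The scripts ran under Python 3.11.15 with scipy 1.17.1, numpy 2.4.6, pandas 2.3.3 and matplotlib 3.10.9.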

Additional observations from a re-analysis of the deposited data

How the results depend on the processing

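With summits at most 10 bp apart, *Gpr75/Asb3* was held by 3 lists instead of 4 because its RELA untreated summit lies 12 bp from the others, and the share of SOX4 untreated sites in all lists fell from 77.6% to 47.9%. A −log10 q of at least 10 raised that share to 91.4%. In depth-adjusted reads, an alternative chosen after seeing the data, the median log2 ratio of TNF to untreated was 0.32 for SOX4 in place of 0.46 and 0.32 for RELA in place of 0.28. In 24 bases the *Acacb* sequence had 2 copies instead of 1. In windows of 200 bp, 2 of the 5 words were found at *Gpr75/Asb3* instead of 1, and 1 instead of 0 at the downstream *Asb3* site. The words gained were the SOX consensus at *Gpr75/Asb3* and AACAAT at the downstream site. At this width the SOX consensus was in 31.2% of sites and 28.3% of flanking windows, and AACAAT in 15.2% and 15.5%. The ratio of RELA to SOX4 at *Acacb* without TNF was 0.08 on the log2 scale by fold enrichment and −0.04 by depth-adjusted reads. By fold enrichment the rank of *Acacb* was 8 in SOX4 untreated, 13 in SOX4 TNF, 7 in RELA untreated and 38 in RELA TNF, so *Acacb* would not be in the top 5 of the SOX4 lists by that measure. By −log10 p it was 2nd and 4th in them, within the top 5. The number of other sites sharing a run changed with the run length, at *Add1* from 4 with 12 bases to 11 with 10 and 1 with 15, and at *Gpr75/Asb3* from 6 to 14 and 1. The 13 members were found under every rule tried. Of 90 alternative values, 72 kept within their error or within 1.5 times and 18 moved. Changes of sign were not counted apart. The log2 ratio of RELA to SOX4 changed sign with the measure at *Acacb* and *Gpr75/Asb3* without TNF. With TNF it did so at *Add1* and *Gpr75/Asb3*. The cause of these moves was not tested except where stated. No paired analysis was possible because the groups share no replicate numbers beyond a lone library each.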
